A study of Homo sapiens with 6 samples.

Results

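Phosphoinositide 3-kinase (PI3K), the kinase AKT and the phosphatases that oppose them form a signalling route of T-cell leukaemia, and 8 of its genes were followed here out of 58735 genes in the deposited tables. They are the catalytic subunit genes PIK3CA, PIK3CD and PIK3CG, the regulatory subunit genes PIK3R1 and PIK3R5, the kinase genes AKT1 and AKT2, and INPP5D, the gene of the lipid phosphatase SHIP1. The members were taken by gene name, and each name matched 1 row. RNA was sequenced from MOLT-3 cells, an established line of human T-cell acute lymphoblastic leukaemia, in 2 groups of 3 libraries each. The cells of one group were treated with compound E, an inhibitor of gamma-secretase, the protease that frees the active part of NOTCH receptors, and those of the other with DMSO. The sources used here give neither dose nor treatment time. The comparison was made to look for NOTCH1-dependent genes with a part in chemosensitivity, and the series is named for a route from PREX2 to AKT, which makes AKT1 and AKT2 the members closest to its question.

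Class I PI3K is a pair of a catalytic and a regulatory subunit that adds a phosphate to a membrane lipid to make PIP3, and PIP3 draws AKT to the membrane, where it is activated. Class IA enzymes hold the alpha, beta or delta catalytic subunit. The alpha and delta forms mainly answer receptors that signal through tyrosine kinases. Class IB holds the gamma subunit and mainly answers G-protein-coupled receptors. The delta and gamma forms are those of leukocytes. SHIP1, a phosphatase of blood cells, removes a phosphate from PIP3 and so lowers it.

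The libraries held 17316138 to 19845114 counts, and every member had between 457 and 5007 counts in each library. All 12 T-lineage markers examined were detected, with a summed level of 3778 to 3882 CPM (counts relative to the library's total, here without TMM scaling) with compound E and 3057 to 3112 CPM with DMSO. RAG1 made the compound E sum the higher one, and without it the sums were 2236 to 2275 CPM with compound E and 2521 to 2563 CPM with DMSO. Of those 12, 3 were called higher and 7 lower with compound E (edgeR, adjusted p below 0.05), while 38.3% of all tested genes were called. Of 19 markers of B, myeloid, erythroid and stromal cells, 8 had 0 counts everywhere and 13 had fewer than 10 counts in every library. The summed levels of these lists with compound E and with DMSO were 13.5 to 14.7 and 13.6 to 14.9 CPM for B cells, 2.31 to 2.75 and 2.80 to 2.97 CPM for myeloid cells, 0.165 to 0.580 and 0.151 to 0.520 CPM for erythroid cells, and 8.59 to 10.5 and 10.9 to 12.5 CPM for stromal cells. Nearly all of the B-cell and stromal sums came from CD79A and COL1A1, and the part of these markers in the results was not tested. The NOTCH target DTX1, a check of the treatment, fell 24.3-fold, to 7.06 ± 1.03 CPM with compound E, against 172 ± 6.86 CPM with DMSO (SD, n = 3 each). The 5 NOTCH targets read for this check all fell, by 1.79-fold to 29.8-fold. The labels do not say that the libraries come from separate cultures, so p-values measure the spread between these libraries, which may be technical. In bulk RNA, fewer cells with a transcript and less of it per cell cannot be told apart.

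Compound E moved the class I catalytic genes among the members in opposite directions. The class IA genes PIK3CA and PIK3CD fell 1.25-fold and 1.22-fold, and the class IB gene PIK3CG rose 1.21-fold. Its regulatory partner PIK3R5 rose 1.13-fold with a weaker call, while PIK3R1, the main class IA regulatory gene, had nearly equal levels in both groups. AKT1 rose 1.17-fold, AKT2 had nearly equal levels in both groups, and INPP5D fell 1.30-fold, the largest change of the 8. All of these changes were under 2-fold. Class I genes outside the members did not all follow the split. The class IA catalytic gene PIK3CB had a fold of 0.929 and was not called. It lay in the direction of PIK3CA and PIK3CD, at 30.2 to 31.1 CPM with compound E and 32.2 to 34.9 CPM with DMSO. The class IA regulatory gene PIK3R3 rose 1.53-fold. PIK3R6, the other class IB regulatory gene, was not called.

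Of the 8 members, 6 (75%) passed edgeR's quasi-likelihood test (adjusted p below 0.05 by Benjamini-Hochberg), of which 3 were higher and 3 lower with compound E. Over all 16926 tested genes 38.3% passed, with 18.9% higher and 19.4% lower, and among genes of at least 5 CPM in 3 libraries 49.8% passed. In 6 of the 8 the libraries of the groups did not overlap, 3 higher and 3 lower with compound E, against 46.8% of all tested genes (23.3% higher and 23.5% lower). The median size of the log2 fold change was 0.25 over the 8 members and 0.17 over all tested genes. The members were chosen with earlier results of these data known, so these counts describe them and test nothing about the set. Levels of single genes are given in TMM-scaled CPM. Every member's change was below 2-fold, while 3.83% of all tested genes both passed the test and changed 2-fold or more.

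**Figure D1:**
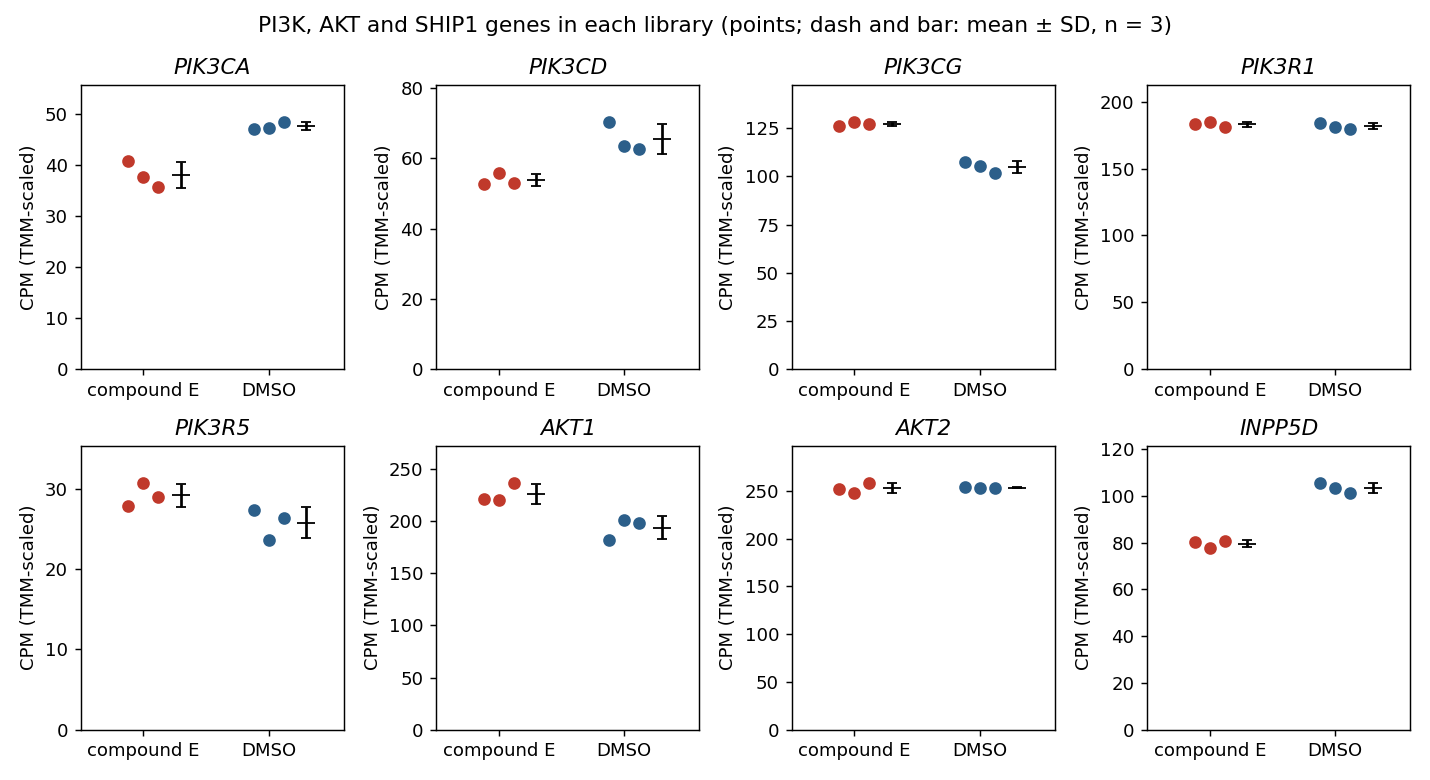
TMM-scaled CPM (y axis, from 0) of each member in the 3 compound E libraries and the 3 DMSO libraries, with mean and SD beside the points. The groups are apart in 6 panels, lower with compound E for PIK3CA, PIK3CD and INPP5D and higher for PIK3CG, PIK3R5 and AKT1, and overlap for PIK3R1 and AKT2.

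NOTCH acts on its targets through the DNA-binding protein RBPJ, so the promoters of 4 members are shown. INPP5D, PIK3CG and AKT1 had the smallest adjusted p of the members, and the PIK3CD window is the one of the 8 that holds the core letters of an RBPJ site. Each window is RefSeq sequence on GRCh38.p14, from 250 bases before to 50 bases after the annotated start nearest to the start of the gene in the deposited table, 5′ to 3′ on the gene's strand. Capitals mark the RBPJ core TGGGAA and, as a form of the ETS site, the letters GGAAGT, on either strand (the second reads ACTTCC where it lies on the opposite strand). The windows are chr2:233060092-233060391 (plus strand), chr1:9651481-9651780 (plus), chr7:106865229-106865528 (plus) and chr14:104795699-104795998 (minus).
INPP5D: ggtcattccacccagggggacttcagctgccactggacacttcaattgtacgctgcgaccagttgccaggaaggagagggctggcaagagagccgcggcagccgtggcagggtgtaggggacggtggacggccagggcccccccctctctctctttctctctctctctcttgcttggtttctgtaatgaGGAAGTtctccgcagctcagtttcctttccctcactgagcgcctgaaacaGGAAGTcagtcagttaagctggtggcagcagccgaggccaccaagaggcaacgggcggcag
PIK3CD: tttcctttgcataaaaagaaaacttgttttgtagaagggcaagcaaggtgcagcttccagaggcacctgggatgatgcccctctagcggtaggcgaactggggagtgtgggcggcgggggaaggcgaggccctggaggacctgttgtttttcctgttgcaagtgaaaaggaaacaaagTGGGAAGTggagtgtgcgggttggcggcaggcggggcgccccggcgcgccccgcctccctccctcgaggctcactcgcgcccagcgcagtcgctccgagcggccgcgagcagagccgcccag
PIK3CG: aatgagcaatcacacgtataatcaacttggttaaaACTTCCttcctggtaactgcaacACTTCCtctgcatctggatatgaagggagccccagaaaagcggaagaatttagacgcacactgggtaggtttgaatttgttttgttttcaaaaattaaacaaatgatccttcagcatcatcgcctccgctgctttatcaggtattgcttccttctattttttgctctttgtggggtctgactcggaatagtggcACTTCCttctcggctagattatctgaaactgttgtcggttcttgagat
AKT1: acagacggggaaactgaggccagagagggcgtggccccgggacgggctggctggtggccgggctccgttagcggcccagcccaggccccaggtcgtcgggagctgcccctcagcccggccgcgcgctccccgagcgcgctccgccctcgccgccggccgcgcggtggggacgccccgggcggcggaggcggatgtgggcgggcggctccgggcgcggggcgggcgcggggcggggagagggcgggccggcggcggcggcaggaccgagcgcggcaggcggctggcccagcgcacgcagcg

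The PIK3CD match to the RBPJ core begins 72 bases before the start and overlaps the ETS letters, while the AKT1 window holds neither motif. The RBPJ core was found in 24.0% of 35116 RefSeq promoter windows of the same length. The ETS letters were in 4 of the 8 windows, 2 times for INPP5D, at 61 and 11 bases before the start, 3 times for PIK3CG, and 1 time each for PIK3CD and AKT2, and 22.8% of all windows held them. The E-box CACGTG, bound by MYC, and TGTGGT, a RUNX site, were in none of the 8 windows (7.26% and 13.1% of all windows). The GC box GGGCGG, searched on both strands like the rest, was in 7 of the 8 windows, that of PIK3CG being the exception, and in 45.0% of all windows. It occurred 7 times for AKT1. The PIK3CG window had a GC content of 41.7%, below the 58.7% median of all windows, and the AKT1 window had 83.3%. The INPP5D window is set by a RefSeq start 375 bases from the gene's first base in the deposited table. For PIK3CA, PIK3CG and AKT2 this distance was 243, 201 and 191 bases. These matches describe letters, not bound sites, and further annotated starts of the members were not searched here.

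PIK3CA encodes the p110-alpha catalytic subunit, which most tissues carry. Its level was 40.6, 37.6 and 35.5 CPM in the compound E libraries, against 47.1, 47.3 and 48.4 CPM in the DMSO libraries. Every compound E library was below every DMSO library, and the compound E libraries were spread more widely than the DMSO ones. The log2 fold change was -0.33 ± 0.0524 (SE), with an edgeR adjusted p of 2.59e-06. PIK3CA (ENSG00000121879) lies at 179148114 to 179240093 on chromosome 3 (GRCh38, plus strand), and 35.8% of its exon bases are also exon bases of KCNMB3 on the opposite strand. KCNMB3, a potassium channel subunit gene, had 17 to 27 counts in the libraries. The sources used here do not say how reads in the shared stretch were counted, so the level of PIK3CA per length is uncertain.

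PIK3CD encodes p110-delta, the leukocyte form that acts below antigen and cytokine receptors. It had 52.6, 55.7 and 53.0 CPM with compound E, against 70.4, 63.5 and 62.7 CPM with DMSO. The groups were apart, and DMSO replicate 1 was the highest library. Its log2 fold change was -0.29 ± 0.0472 (SE), with an edgeR adjusted p of 4.18e-06. The gene (ENSG00000171608) lies at 9651732 to 9729114 on the plus strand of chromosome 1. It shares 89 exon bases, 1.41% of its exons, with CLSTN1 on the other strand, a gene with more counts that had a log2 fold change of -0.07 ± 0.0302 (edgeR adjusted p = 0.0716). The antisense genes PIK3CD-AS1 and PIK3CD-AS2 had at most 5 and 7 counts in any library.

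PIK3CG encodes p110-gamma, the class IB form of leukocytes. Its level was 126, 128 and 127 CPM with compound E, against 108, 105 and 102 CPM with DMSO. All compound E libraries were above all DMSO libraries, and the compound E values lay within a narrow band. The log2 fold change was 0.28 ± 0.0344 (SE), with an edgeR adjusted p of 1.60e-08. PIK3CG (ENSG00000105851) is at 106865278 to 106907145 on the plus strand of chromosome 7, and no other gene of the table overlaps it.

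PIK3R5 encodes p101, which joins p110-gamma to G-protein subunits. It had 27.8, 30.8 and 28.95 CPM with compound E, against 27.4, 23.6 and 26.4 CPM with DMSO. The lowest compound E library stood only just above the highest DMSO library. Its log2 fold change was 0.18 ± 0.0640 (SE), with an edgeR adjusted p of 0.0240. PIK3R5 (ENSG00000141506) lies at 8878911 to 8965712 on the minus strand of chromosome 17. Its call was lost under DESeq2 (adjusted p = 0.0898) and limma on FPKM (0.126 to 0.230). It was also lost in edgeR when compound E replicate 2 (0.116; log2 fold change 0.14) or DMSO replicate 2 (0.204; 0.12) was left out.

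PIK3R1 encodes p85-alpha, which holds and restrains the class IA catalytic subunits, and shorter forms from inner starts of the same gene. It had 183, 185 and 181 CPM with compound E, against 184, 181 and 180 CPM with DMSO. The groups overlapped. The fold was 1.01, with a 95% confidence interval of 0.967 to 1.05 (edgeR adjusted p = 0.795). GENCODE lists 16 transcripts of PIK3R1 (ENSG00000145675, chromosome 5, 68215720 to 68301821, plus strand), and counts per gene do not say which of them was present.

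AKT1, the isoform most often named in cell survival, had 221, 221 and 237 CPM with compound E, against 182, 201 and 199 CPM with DMSO. All compound E libraries were above the DMSO libraries, of which replicate 1 was the lowest. The log2 fold change was 0.22 ± 0.0344 (SE), with an edgeR adjusted p of 1.33e-06. AKT1 (ENSG00000142208) lies at 104769349 to 104795751 on the minus strand of chromosome 14.

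AKT2, best known for glucose uptake under insulin, had 252, 248 and 259 CPM with compound E, against 254, 253 and 253 CPM with DMSO. The DMSO values lay inside the range of the compound E values. The fold was 0.999, with a 95% confidence interval of 0.960 to 1.04 (edgeR adjusted p = 0.973). AKT2 (ENSG00000105221) is at 40230317 to 40285536 on the minus strand of chromosome 19. The sense-intronic transcript AC118344.1 and the microRNA gene MIR641 within it had counts of at most 2.47% and 0.325% of those of AKT2 in any library.

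INPP5D had 80.1, 77.8 and 80.7 CPM with compound E, against 106, 103 and 101 CPM with DMSO. The groups were far apart relative to their spread, at 79.5 ± 1.56 and 103 ± 2.28 CPM (SD, n = 3 each). The log2 fold change was -0.38 ± 0.0373 (SE), with an edgeR adjusted p of 6.09e-11, the smallest among the members. INPP5D (ENSG00000168918) is at 233059967 to 233207903 on chromosome 2 (plus strand), and the one gene that overlaps it, RN7SL32P, had at most 3 counts.

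**Figure D2:**
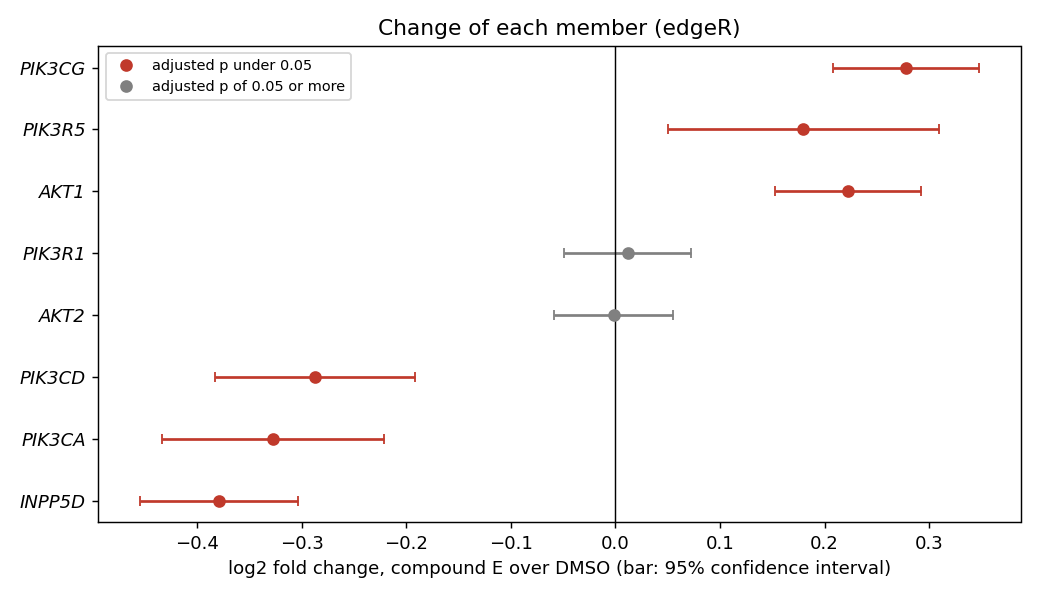
Log2 fold change of compound E over DMSO (x axis) for the 8 members, with the 95% confidence interval of the edgeR fit. The intervals of PIK3CG, PIK3R5 and AKT1 lie above 0, those of PIK3CD, PIK3CA and INPP5D lie below it, and those of PIK3R1 and AKT2 span it.

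Levels of different genes were compared as FPKM, counts per kilobase of gene length and scaled for the size of the library. With compound E the order was PIK3CG (21.4 ± 0.193 FPKM), AKT1 (20.2 ± 0.841), PIK3R1 (17.0 ± 0.177), AKT2 (16.8 ± 0.346), INPP5D (9.12 ± 0.174), PIK3CD (8.45 ± 0.274), PIK3CA (3.98 ± 0.266) and PIK3R5 (3.87 ± 0.198; SD, n = 3 each). In it PIK3R1 and AKT2, and PIK3CA and PIK3R5, had overlapping ranges. With DMSO the same order held, but each of the first 3 genes overlapped the next, with the first 4 at 17.5 ± 0.514, 17.2 ± 0.927, 16.7 ± 0.227 and 16.7 ± 0.0591 FPKM, and PIK3CA (4.97 ± 0.0679) was above PIK3R5 (3.41 ± 0.260) without overlap. Among tested protein-coding genes PIK3CG and AKT1 stood at percentiles 81.6 and 80.7 of mean FPKM, and PIK3CA and PIK3R5 at 41.8 and 37.3.

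The deposited lengths count all exons of a gene, 11162 bases for AKT1 and 15035 for AKT2, whose principal transcripts in GENCODE 29 have 3916 and 5300 bases. Per length of that transcript, an alternative added after the data were seen, AKT1 (57.5 ± 2.40 with compound E, 49.1 ± 2.64 with DMSO) and AKT2 (47.5 ± 0.982 and 47.4 ± 0.168) were above PIK3CG (23.6 ± 0.213 and 19.3 ± 0.567), and PIK3R5 (6.46 ± 0.331 and 5.69 ± 0.435) was above PIK3CA (4.15 ± 0.278 and 5.18 ± 0.0709). On this length PIK3R1 (26.0 ± 0.272 with compound E, 25.7 ± 0.349 with DMSO) was also above PIK3CG. INPP5D was at 16.3 ± 0.312 with compound E, below PIK3CG, and at 21.1 ± 0.494 with DMSO, above it. The order of the members therefore depends on the length used, while a gene's own fold change does not.

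PIK3CG made up the largest share of the summed FPKM of the 4 class I catalytic genes, 56.7% ± 0.593 with compound E and 47.5% ± 0.189 with DMSO (SD, n = 3 each). PIK3CD made up 22.4% ± 0.502 with compound E and 27.7% ± 1.08 with DMSO. The shares of PIK3CA were 10.5% ± 0.684 with compound E and 13.5% ± 0.555 with DMSO, and those of PIK3CB, the beta form, 10.4% ± 0.110 and 11.3% ± 0.626. None of the 4 shares overlapped between the groups. Each had a two-sided exact permutation p of 0.10, which is the smallest that 3 against 3 libraries allow, so none can pass 0.05. The 4 shares make up a whole, so a rise in one lowers the others and they are not separate results. Their sizes depend on the gene length used. Per length of the principal transcript the mean share of PIK3CB was above that of PIK3CA. The shares were then 11.99% ± 0.133 and 9.61% ± 0.628 with compound E, and 13.03% ± 0.719 and 12.20% ± 0.510 with DMSO. PIK3CG remained the largest, at 54.6% with compound E and 45.5% with DMSO. The PIK3CA share is also uncertain because of the exon bases shared with KCNMB3. PIK3CB itself was not called (log2 fold change -0.11 ± 0.0568, edgeR adjusted p = 0.143). For single genes, the levels of 46.8% of all tested genes did not overlap between the groups.

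**Figure D3:**
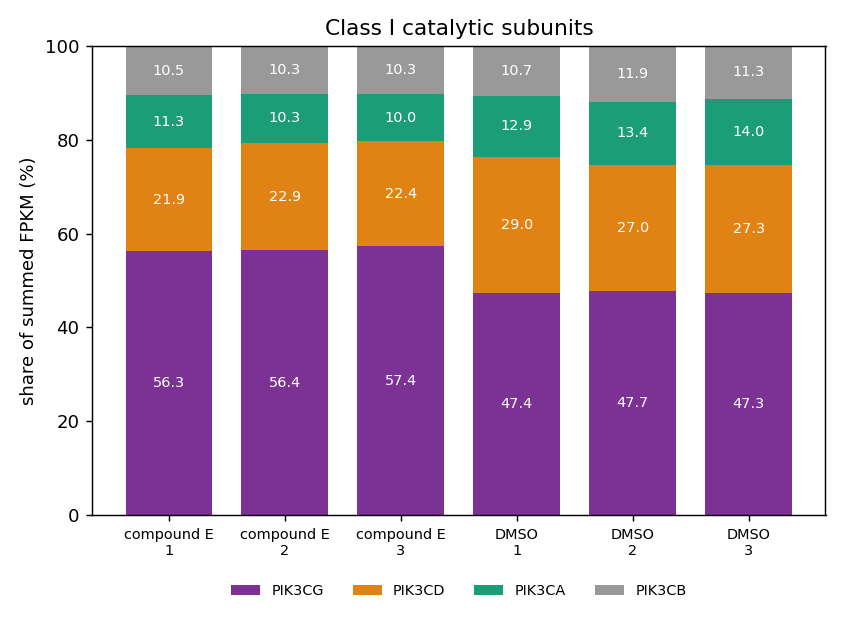
Share of summed FPKM (y axis, %) of the 4 class I catalytic genes in each library. The PIK3CG share is 56.3 to 57.4% in the compound E libraries and 47.3 to 47.7% in the DMSO libraries.

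Of 6 ratios between members, those across the opposite changes moved most, which follows from the fold changes above and is no separate result. The log2 ratio of INPP5D to AKT1 was -1.14 ± 0.0455 with compound E and -0.54 ± 0.108 with DMSO, a difference of -0.60. The log2 ratio of PIK3CG to PIK3CD was 1.34 ± 0.0349 with compound E and 0.78 ± 0.0588 with DMSO, which is a 2.53-fold excess of PIK3CG with compound E and a 1.71-fold excess with DMSO. The log2 ratio of PIK3R1 to the sum of PIK3CA and PIK3CD was 0.45 ± 0.0244 with compound E and 0.14 ± 0.0410 with DMSO. For AKT2 over AKT1 it was -0.27 ± 0.0331 and -0.04 ± 0.0836. These 4 ratios did not overlap between the groups (two-sided exact permutation p = 0.10 each, the smallest possible, and 0.15 after Benjamini-Hochberg adjustment over 6).

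Genes that moved the same way kept nearer ratios, which also follows from their fold changes. The log2 ratio of PIK3CD to PIK3CA was 1.09 ± 0.116 with compound E and 1.04 ± 0.106 with DMSO (exact permutation p = 1.0). That of PIK3R5 to PIK3CG was -2.47 ± 0.0606 with compound E and -2.37 ± 0.112 with DMSO (exact permutation p = 0.30). The groups overlapped in both. The level of a ratio depends on the gene length used, while its difference between groups hardly does. Per principal transcript INPP5D to AKT1 was at -1.81 ± 0.0455 with compound E and -1.21 ± 0.108 with DMSO, and PIK3R5 to PIK3CG at -1.87 ± 0.0606 with compound E and -1.77 ± 0.112 with DMSO.

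**Figure D4:**
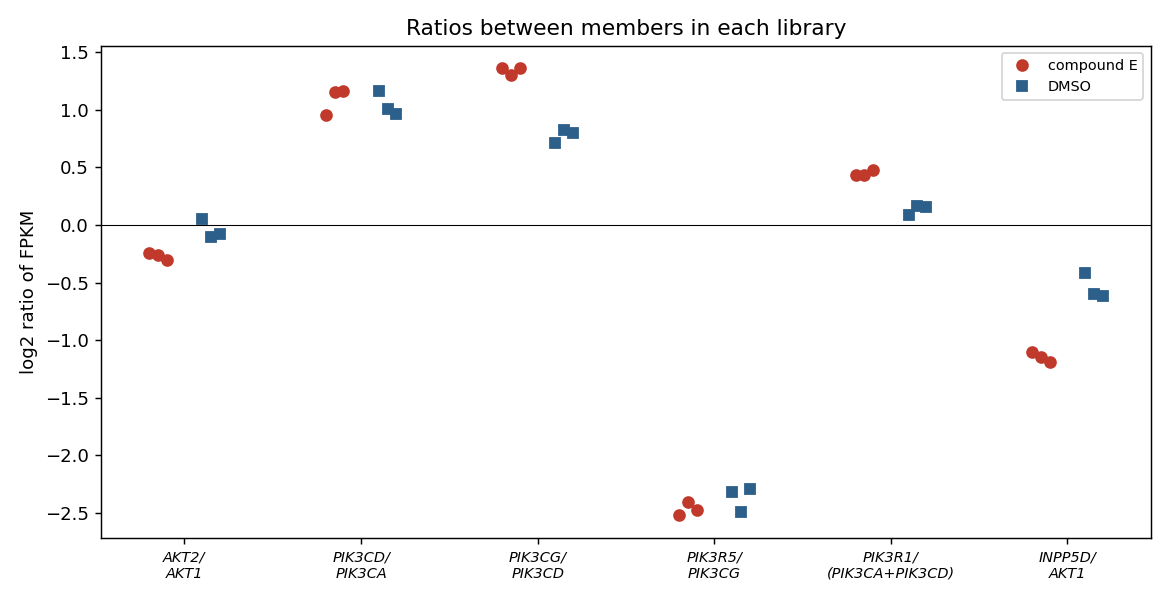
Log2 ratio of FPKM (y axis) between members in each compound E library (circles) and DMSO library (squares). The groups overlap for PIK3CD/PIK3CA and PIK3R5/PIK3CG and lie apart for the other ratios, most widely for INPP5D/AKT1.

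Another 93 genes of the pathway were read in 8 lists, which were chosen with earlier results of these data known. Of 82 tested, 26 rose and 20 fell, 56.1% against 38.3% of all tested genes (18.9% higher and 19.4% lower). Their median log2 fold change was 0.01 (0.00 over all tested genes). Among genes of at least 5 CPM in 3 libraries, 42 of 70 in the lists and 49.8% of all genes passed. The counts of single lists below stand beside the same background shares, and no list was tested as a set. Of the 7 that passed at 2-fold or more, 2 rose and 5 fell, and 3.83% of all tested genes passed at that size. On the log2(FPKM + 1) scale, which understates changes of low genes, SGK1 was at 0.57, ICOS at -0.86 and PREX1 at -0.20, all below 2-fold, and PREX1 was at -0.95 and -0.99 in edgeR without compound E replicate 2 or 3.

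Among other class I genes, 1 of 5 tested rose. It was PIK3R3, which encodes the class IA regulatory subunit p55-gamma. It had 94.7, 97.6 and 92.3 CPM with compound E, against 64.5, 57.8 and 63.9 CPM with DMSO. Its log2 fold change of 0.61 ± 0.0426 (SE; edgeR adjusted p = 3.94e-15) exceeded in size that of every member. PIK3CB was at -0.11 ± 0.0568 (edgeR adjusted p = 0.143), and PIK3R6, the other class IB regulatory gene, had 2.81 ± 0.544 CPM with compound E and 3.13 ± 0.396 CPM with DMSO. PIK3R2 had at most 11 counts and was not tested. Of the class II and III genes, whose products make other phosphoinositides, the 4 tested did not pass, with edgeR adjusted p values of 0.2498 and above and log2 fold changes of 0.00 to 0.06.

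Of 7 tested genes of AKT activation 3 rose and 1 fell. PDPK1, the kinase that phosphorylates AKT in its activation loop, rose at a log2 fold change of 0.18 ± 0.0441, and MTOR and MAPKAP1, parts of the complex that phosphorylates its tail, rose at 0.19 ± 0.0307 and 0.20 ± 0.0352. MLST8, of the same complex, fell at -0.14 ± 0.0488 (edgeR adjusted p = 0.0175), a call lost with DESeq2 (0.0704), under limma with FPKM (0.105 to 0.189) and when compound E replicate 1 (0.0613), compound E replicate 2 (0.112) or DMSO replicate 2 (0.142) was dropped from the edgeR test. RICTOR was at -0.00048 ± 0.0437. The AKT coactivators TCL1A and TCL1B had 0 counts in every library.

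Of 11 tested inhibitors and phosphatases of AKT 4 rose and 4 fell. TRIB3, a pseudokinase that binds AKT and is induced by amino acid shortage, fell 3.81-fold, with 18.9 ± 1.61 CPM with compound E and 72.1 ± 1.80 CPM with DMSO (SD, n = 3 each; edgeR adjusted p = 2.58e-27). TRIB2 fell at a log2 fold change of -0.38 ± 0.0366. TRIB1 went the other way, at 0.52 ± 0.144 (edgeR adjusted p = 0.0036). Its levels were low, 5.49 ± 0.225 CPM with compound E and 3.83 ± 0.219 CPM with DMSO. PHLPP1, a phosphatase of the AKT tail, fell at -0.50 ± 0.0572. Its relative PHLPP2 rose at 0.28 ± 0.0746, a call lost with limma on FPKM (adjusted p of 0.0949 to 0.242), and PPP2R1B, a scaffold of protein phosphatase 2A, rose at 0.31 ± 0.0409.

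Of 10 tested phosphoinositide phosphatases beside INPP5D 4 rose, and the other 6 did not pass. This share is near the 38.3% of all tested genes that passed. INPP5F rose at a log2 fold change of 0.58 ± 0.0825, the synaptojanin genes SYNJ1 and SYNJ2 at 0.33 ± 0.0586 and 0.22 ± 0.0402, and INPP4A, which acts on the product of SHIP1, at 0.16 ± 0.0308. The largest edgeR adjusted p of the 4 was 5.64e-05. INPPL1, the gene of the related phosphatase SHIP2, was at 0.01 ± 0.0325 (edgeR adjusted p = 0.775), against -0.38 for INPP5D.

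Receptors and adaptors that feed PI3K held most of the large falls, with 6 of 17 higher and 6 lower. IL7R, the interleukin-7 receptor chain, fell 5.39-fold, and IGF1R, a growth-factor receptor that signals through PI3K, fell 2.77-fold. ICOS, a T-cell costimulator that recruits PI3K, fell 4.18-fold at low levels, 0.906 ± 0.220 CPM with compound E and 3.80 ± 0.191 CPM with DMSO. GAB2, an adaptor for the class IA regulatory subunit, fell 1.90-fold, with 41.9 ± 2.24 CPM with compound E and 79.8 ± 1.62 CPM with DMSO. GRB2, the adaptor of receptor tyrosine kinases, rose at a log2 fold change of 0.27 ± 0.0268. Over these 5 receptors and adaptors the edgeR adjusted p was at most 5.54e-10.

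Of 14 tested proteins that bind PIP3 or depend on it 4 rose and 4 fell. PREX2, a RAC exchange factor that responds to PIP3, was the gene of all lists with the largest rise, 4.92-fold, with 97.0 ± 5.60 CPM with compound E and 19.7 ± 0.693 CPM with DMSO (SD, n = 3 each). Its relative PREX1 fell 2.11-fold, with 1.14 ± 0.292 CPM with compound E and 2.42 ± 0.262 CPM with DMSO, a call lost with limma on unfiltered log2(FPKM + 1) (adjusted p = 0.0538). SGK1, a kinase related to AKT, rose 3.42-fold, to 8.57 ± 0.0805 CPM with compound E, against 2.50 ± 0.340 CPM with DMSO. PLCG1, a phospholipase of T-cell receptor signalling, rose at a log2 fold change of 0.33 ± 0.0254, and CYTH1, an ARF exchange factor, fell at -0.41 ± 0.0278. The largest edgeR adjusted p of these 5 was 0.000373, for PREX1.

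Of 14 tested substrates of AKT 4 rose and 5 fell. The forkhead factor genes went apart, FOXO3 at a log2 fold change of -0.34 ± 0.0480 and FOXO4 at 0.33 ± 0.0541, and FOXO1 had at most 14 counts and was not tested. CHUK, a kinase of the NF-kB route, rose at 0.25 ± 0.0449, and the cell-cycle inhibitor gene CDKN1B fell at -0.20 ± 0.0376. The largest edgeR adjusted p of these 4 was 4.39e-05. TSC1 and TSC2, through which AKT relieves its brake on mTORC1, were at -0.04 ± 0.0419 and 0.03 ± 0.0377.

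**Figure D5:**
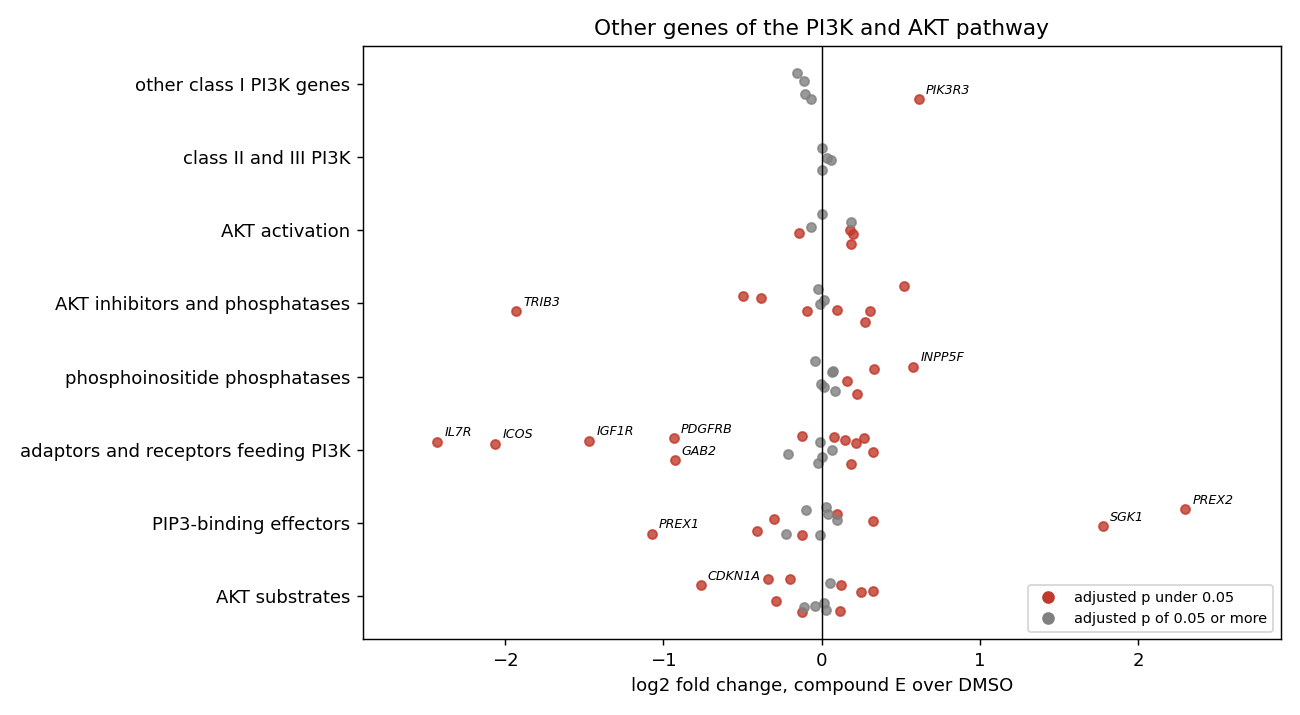
Log2 fold change of compound E over DMSO (x axis) for the 82 tested genes of the 8 pathway lists, 1 point a gene, in rows by list (vertical scatter within a row has no meaning). Genes that passed the edgeR test with the larger changes are named, with PREX2 farthest to the right at 2.30 and IL7R farthest to the left at -2.43.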

How the data were processed

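Gene expression of 6 polyadenylated RNA libraries was analysed, 3 with compound E and 3 with DMSO, grouped by the titles in the labels. The deposited count table holds whole-number counts per gene, which the authors had not normalised. The second table deposited by the authors holds FPKM, and in it count divided by FPKM and gene length gave 1 divisor per library. The submitters' processing notes name HISAT2 2.0.5, featureCounts 1.5.0-p3 and DESeq2 1.16.1 with no role. The genome build, the use of the strand and the handling of reads with several matches are not stated in the sources used here. All 58735 identifiers had the start, end and strand of GENCODE 29, so coordinates are on GRCh38.

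Counts were scaled by TMM, filtered by filterByExpr and tested with edgeR 4.0.16 in R 4.3.3 (quasi-likelihood F-test, treatment the only term, Benjamini-Hochberg over 16926 genes, called under 0.05). The standard error is the log2 fold change divided by the square root of F. Ratios and shares used FPKM and two-sided exact permutation tests (scipy 1.17.1). The analysis was tested on simulated data. The text names the members, up to 4 called genes of smallest p and those past 2-fold in each list, genes that overlap or flank a member, and the 3 nearest profiles of AKT1 and INPP5D. PIK3CB, PIK3R2, INPPL1, RICTOR, PHLPP2, TRIB1, FOXO1, TSC1, TSC2 and the TCL1 genes, and CD79A, COL1A1, RAG1 and DTX1 of the marker lists, were named after their values were seen. The members and lists were chosen with earlier results of these data known. Alternatives were other scalings and filters, DESeq2 1.42.0, limma 3.58.1 with voom and on log2 FPKM with pseudocounts of 1 and 0.1, protein-coding genes alone, a replicate block and each library left out. The fewest counts behind a member's value are 457. No library was left out, and 1 gene of the lists is counted but not reported here. Figures were drawn with matplotlib 3.10.9.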

Additional observations from a re-analysis of the deposited data

How the results depend on the processing

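Of the 8 members, 5 (AKT1, PIK3CA, PIK3CD, PIK3CG and INPP5D) had the same direction and passed in all 18 alternatives each. The members called numbered 5 to 6 in every alternative and 5 to 6 with each library left out, and PIK3R5 was the one lost. AKT2 and PIK3R1 passed in none, and their signs turned around 0. AKT2 was at 0.00032 with RLE size factors and with DESeq2, at 0.0039 without a filter, and at 0.0048 and 0.0050 with limma on FPKM with pseudocounts of 1 (filtered or not) and 0.1, and ranged over -0.017 to 0.014 with each library left out. PIK3R1 was at -0.0038 with upper quartile scaling and -0.00089 with the filter of 5 CPM. Among genes near the members that were not called, KCNMB3 ranged over -0.264 to 0.0411 and ZMAT3 over -0.0325 to 0.0149 with each library left out, and both turned without DMSO replicate 1. AC118344.1 ranged over -0.0015 to 0.15 and turned without compound E replicate 2. The pathway genes called numbered 32 to 46, with 39 in DESeq2. All genes called numbered 4949 with DESeq2, 5671 to 6068 with a library left out, and 4002 with limma on unfiltered log2(FPKM + 1), where the cause was not tested. On that scale the call of PREX1 was lost (-0.20, adjusted p = 0.0538). Of 11 alternatives for each ratio and share, none turned a direction.

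No pairing of the libraries by replicate number was detected. Same-numbered libraries had correlations of 0.0100, -0.0509 and 0.0075 in their deviations from the group means, and 0 of 3 compound E libraries correlated best with its own number. Such correlations cannot exclude that same-numbered libraries shared a culture or a preparation, which the labels do not state. With the replicate block 6 members, 45 pathway genes and 6138 of all genes were called, and PIK3R5 had an adjusted p of 0.0410. In the paired ratios the smallest exact p that 3 pairs allow is 0.25.

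PIK3R5 had the fewest counts of the members, 457 to 556 a library. Changes of AKT2 and PIK3R1 inside their intervals could not be detected at this depth and spread.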

Other observations

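The genes beside the members on the chromosome were read as a description of their surroundings. Of the 16 nearest tested protein-coding genes, 1 on each side of a member, 6 (37.5%) were called, against 38.3% of all tested genes, which is near the background. All 6 stood beside a called member, as did 12 of the 16, and 5 had that member's direction. Of these 5 calls, that of ZBTB42 beside AKT1 was lost in 10 of 18 alternatives, that of ZNF639 beside PIK3CA in 7 and that of NTN1 beside PIK3R5 in 6. SIVA1, which encodes a proapoptotic protein and whose 3′ end lies 855 bases from that of AKT1 on the other strand, rose at a log2 fold change of 0.34 ± 0.0293, with 258 ± 3.04 CPM with compound E and 204 ± 5.85 CPM with DMSO (SD, n = 3 each; edgeR adjusted p = 2.58e-12). PRKAR2B, the gene after PIK3CG and a regulatory subunit of protein kinase A, rose at 0.24 ± 0.0597 (edgeR adjusted p = 0.00128). CTNNBIP1, the gene after PIK3CD, was at 0.18 ± 0.0590 while PIK3CD fell, with an edgeR adjusted p of 0.0152 that became 0.0616 with DESeq2, 0.0645 without compound E replicate 1 and 0.152 without DMSO replicate 1. ATG16L1, an autophagy gene 2148 bases after INPP5D, was at 0.11 ± 0.0533 (edgeR adjusted p = 0.0912). PIK3R5 and PIK3R6, both class IB regulatory genes, are neighbours 11234 bases apart, at 0.18 ± 0.0640 and -0.15 ± 0.188 (edgeR adjusted p = 0.0240 and 0.564).

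Among 10116 tested protein-coding genes averaging 5 CPM or more, the 3 whose centred log2 CPM over the 6 libraries came nearest to AKT1 were STK11, TRAPPC4 and DGUOK, with root mean square differences of 0.0092, 0.0136 and 0.0187. STK11 encodes the kinase LKB1, and its level was 135 ± 6.42 CPM with compound E and 116 ± 6.72 CPM with DMSO (SD, n = 3 each). The 3 nearest to INPP5D were CPNE1, IFFO2 and SLC39A14, at 0.0184, 0.0191 and 0.0203. CPNE1, which encodes a calcium-dependent membrane-binding protein, had 170 ± 0.584 CPM with compound E and 222 ± 5.25 CPM with DMSO. The 6 points share the same libraries and the treatment, so many genes follow the same split.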
